A study of Mus musculus with 4 samples.

Results

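The genes of the phagocyte NADPH oxidase and of its Rac switches were followed in 32Dcl3 cells edited at Abl1, growing with or without interleukin 3 (IL-3). Members were taken by gene symbol from a fixed list of 6 (Cybb, Cyba, Ncf1, Ncf4, Rac1 and Rac2), and all 6 were found among the 23756 genes of the deposited table. 32Dcl3 is a murine hematopoietic line that depends on IL-3 for growth. Both groups carried the genotype Abl1 KO, made with lentiviral CRISPR/Cas9 and puromycin selection, so neither is an unedited control. The study also describes RNA sequencing of 32Dcl3-Abl1 cells kept with IL-3, a group absent from the libraries used here. The group Abl1ko/IL3+ (2 libraries, labelled Control) was kept with IL-3. The group Abl1ko/IL3- (2 libraries, labelled Exp) grew without it after the cytokine had been withdrawn gradually. The study describes the cells of that group as IL-3-independent. The lack of IL-3 and the outgrowth of some cells thus cannot be told apart in this comparison. The study's methods describe the picking of single clones and also populations made with 2 guides, but no library is tied to one of them, and the labels give no time without IL-3.

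The oxidase makes superoxide by passing electrons from NADPH to oxygen. Its membrane core, flavocytochrome b558, pairs the catalytic chain gp91-phox (Cybb) with its partner p22-phox (Cyba), which docks the cytosolic factors. Among those factors are the organizer p47-phox (Ncf1) and p40-phox (Ncf4), which binds the lipid PI3P on phagosomes, and a Rac GTPase loaded with GTP completes the active enzyme. In blood cells the oxidase is known as the source of the respiratory burst of neutrophils and macrophages, and Cybb is a gene that granulocytes switch on late in maturation.

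The 4 libraries held from 48953174 to 60382588 counts. The edited gene Abl1 had between 1322 and 2256 counts in them, with the groups overlapping, and an edit in an exon need not lower transcript counts. Replicates of the Abl1ko/IL3+ group stood further apart than those of the other group, with a median absolute log2 difference over the 16535 genes tested of 0.59 against 0.31. The labels call the cells pre-B-cells. Of the 9 B-lineage markers 6 were measured, and their summed level was between 12.1 and 14.6 FPKM (fragments per kilobase, scaled to sequencing depth), with Rag1 at 4 counts in 1 library and 0 in the other 3. The 8 myeloid progenitor markers had a far higher sum, led by Mpo, Ms4a3 and Ctsg, although Kit and Cd34 were below 0.1 FPKM in every library. The B-lineage sum was mostly Cd79b, a chain of the B-cell receptor complex, at 6.24 to 10.9 FPKM in the 4 libraries, and Cd79a reached 6.41 FPKM in Abl1ko/IL3+ replicate 2.

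Start sites of 3 members (Cybb, Cyba and Ncf1) were found in the RefSeq promoter windows, and the 250 bases before each start are shown because the catalytic gene and its partners differed so widely in level. Capitals mark CCAAT and AGGAA, searched on both strands in the GRCm38.p6 build. AGGAA is a longer run around GGAA, the core bound by ETS factors such as PU.1. Each gene lies on the minus strand and is printed 5′ to 3′, from chrX:9469325-9469574 for Cybb, chr8:122432941-122433190 for Cyba and chr5:134229626-134229875 for Ncf1. Starts are those of RefSeq, and for Cybb that start lies inside the span the files give for the gene, which reaches further upstream.
Cybb: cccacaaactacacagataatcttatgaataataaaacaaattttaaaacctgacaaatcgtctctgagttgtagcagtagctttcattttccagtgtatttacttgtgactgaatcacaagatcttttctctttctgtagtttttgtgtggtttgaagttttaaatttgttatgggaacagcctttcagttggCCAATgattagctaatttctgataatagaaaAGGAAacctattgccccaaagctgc
Cyba: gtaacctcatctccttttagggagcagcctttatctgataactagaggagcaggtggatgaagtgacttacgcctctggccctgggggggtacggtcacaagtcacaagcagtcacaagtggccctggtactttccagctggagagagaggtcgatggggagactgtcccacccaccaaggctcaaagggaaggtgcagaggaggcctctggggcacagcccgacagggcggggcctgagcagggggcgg
Ncf1: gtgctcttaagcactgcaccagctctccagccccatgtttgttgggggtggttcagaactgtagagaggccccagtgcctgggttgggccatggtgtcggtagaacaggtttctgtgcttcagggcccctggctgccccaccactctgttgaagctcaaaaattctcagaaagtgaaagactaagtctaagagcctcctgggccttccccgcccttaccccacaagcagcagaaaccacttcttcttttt

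The Cybb window held 1 CCAAT, which began 56 bases before the RefSeq start, and 1 AGGAA, which began 25 bases before it. The Cyba and Ncf1 windows held neither run. The shorter core GGAA was not searched for, and it or its reverse complement TTCC can be read in each of the 3 printed windows. Over 32817 promoter windows of the same length, 33.8% held CCAAT and 60.3% held AGGAA, so the Cybb matches are common letters. The longer run GAGGAA, which contains AGGAA, was in none of the 3 windows and in 23.3% of all. The share of G and C was 34% in the Cybb window, 60% in that of Cyba and 54.4% in that of Ncf1. AGGAA was chosen after the Cybb window had been read, and a match is a description of the letters, not a bound site.

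Transcripts of the partner and cytosolic subunits were abundant in all 4 libraries, whereas those of the catalytic subunit were almost absent, with or without IL-3. Per length, averaged over the 4 libraries, Rac2 stood at 288 FPKM and Cyba at 263 FPKM, followed by Ncf4 at 83.3 FPKM, Ncf1 at 77.2 FPKM and Rac1 at 49.4 FPKM, and Cybb came last at 0.021 FPKM. Neighbours in that order overlapped over the libraries, apart from the gaps between Cyba and Ncf4 and between Rac1 and Cybb. Rac2 and Cyba were always among the 299 highest of the 23756 genes, and Ncf1, Ncf4 and Rac1 among the 1249 highest. Rac2 was the first of the 6 in both Abl1ko/IL3+ libraries and Cyba in both Abl1ko/IL3- libraries. In bulk RNA, fewer cells that express a gene and less of its RNA per cell cannot be told apart.

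**Figure D1:**
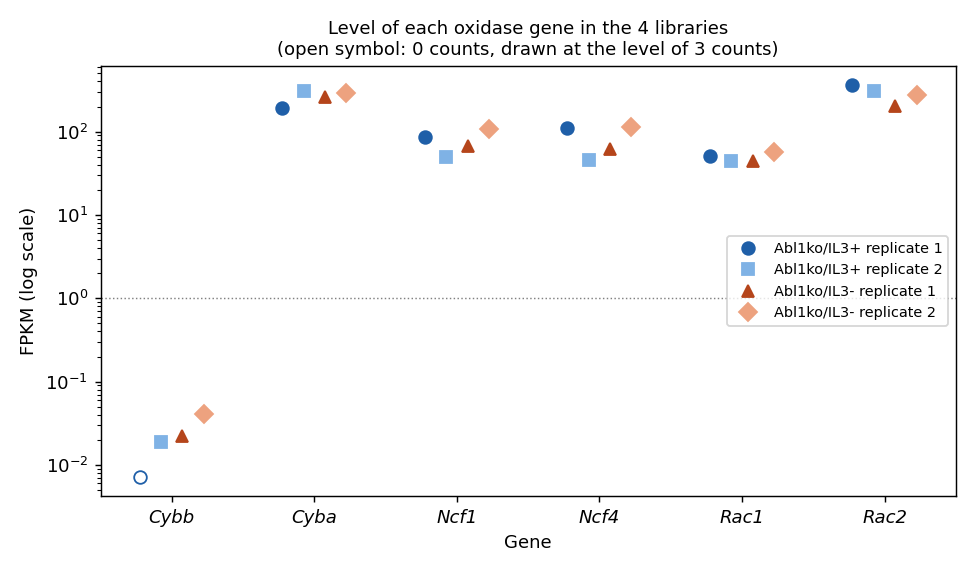
Level of each oxidase gene as FPKM on a log axis, with 1 symbol for each of the 4 libraries and the dotted line at 1 FPKM. Cybb lies below 0.05 FPKM in every library, with its library of 0 counts drawn as an open symbol at the level of 3 counts, while the other 5 genes lie between 44.7 and 360 FPKM.

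Cybb (ENSMUSG00000015340, chromosome X from 9435252 to 9487771 on the minus strand) codes for gp91-phox, the chain that carries heme and flavin. It had 0 and 8 counts in Abl1ko/IL3+ replicates 1 and 2, and 8 and 15 counts in Abl1ko/IL3- replicates 1 and 2. The count of 0 was read as up to 3 counts, or 0.0503 CPM (counts scaled to library size). That value uses the unadjusted library size. On the scale of normalized CPM, the 95% exact Poisson interval of this library reached 0.0572. The other libraries had 0.147 normalized CPM (95% exact Poisson interval 0.0635 to 0.290) with IL-3, and 0.167 (0.0722 to 0.329) and 0.258 (0.145 to 0.426) without it. These intervals cover counting error only and take each count as 1 independent read. Those of the 3 libraries with counts overlapped. Cybb did not pass the expression filter, so it entered no test among the 16535 genes. When every gene with a count was tested, the fitted log2 fold change was 1.52 (positive where higher without IL-3), and edgeR's quasi-likelihood test gave an adjusted p of 0.929. That value moved with single libraries, to 0.54 without Abl1ko/IL3+ replicate 1 and to 6.61 without Abl1ko/IL3+ replicate 2, where a library of 0 counts is all that stands for IL-3, and it passed the threshold in neither. A difference in Cybb was thus not detectable at this depth.

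Cyba (ENSMUSG00000006519, chromosome 8 from 122424776 to 122432930 on the minus strand) codes for p22-phox, the membrane partner that also serves other NOX enzymes. It stood at 208 and 394 normalized CPM with the cytokine and at 319 and 328 without it. Both libraries without IL-3 fell between the 2 libraries with it, so the groups overlapped. Per length, Cyba exceeded Cybb by 15911-fold in Abl1ko/IL3+ replicate 2, by 11601-fold in Abl1ko/IL3- replicate 1 and by 7172-fold in Abl1ko/IL3- replicate 2. Those ratios rest on 8, 8 and 15 counts of Cybb, so their size is rough. Abl1ko/IL3+ replicate 1 had 0 counts of Cybb. Set against a floor of 3 counts in that library, Cyba was 26627-fold higher, a lower bound that depends on the floor. The log2 fold change of Cyba was 0.10 (standard error 0.42, adjusted p = 0.991 from edgeR), and without Abl1ko/IL3+ replicate 1 its direction turned, to -0.27.

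Ncf1 and Ncf4, the organizer and its PI3P-binding companion, varied more between replicates than between groups. Ncf1 (ENSMUSG00000015950, chromosome 5 from 134220053 to 134229625 on the minus strand) had 325 and 230 normalized CPM with IL-3, and 287 and 422 without it. Ncf4 (ENSMUSG00000071715, chromosome 15 from 78244801 to 78262580 on the plus strand) had 235 and 114 normalized CPM with IL-3, and 147 and 248 without it. The first library with IL-3 and the second without it were high for both genes and the remaining libraries low, so high and low libraries occurred in each group. Ptprc, which codes for the pan-leukocyte protein CD45 and is named after its values were seen, had 16.2 and 0.712 FPKM with IL-3 and 1.21 and 14.9 FPKM without it, so it was high in the libraries where Ncf1 and Ncf4 were high, and what this had to do with the oxidase genes was not tested. The replicates of Ncf4 differed by 1.04 on the log2 scale with IL-3 and by 0.75 without it, while its log2 fold change between groups was 0.18 (standard error 0.50, adjusted p = 0.985 from edgeR).

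For Ncf1 the log2 fold change was 0.35 (standard error 0.38, adjusted p = 0.942 from edgeR), below the differences of 0.50 and 0.56 between its replicates. Leaving out Abl1ko/IL3+ replicate 2 or Abl1ko/IL3- replicate 2 turned the direction of Ncf4, to -0.24 in each case. Leaving out either of the same libraries moved the value of Ncf1 to 0.13 and 0.053. Per length, Ncf1 was 0.762 and 1.11 times Ncf4 with IL-3, against 1.07 and 0.936 times without it. The genes of the 2 cytosolic proteins were therefore at similar levels in each library, and that ratio did not separate the groups (two-sided exact permutation p = 1, where the smallest possible is 0.333). Among the 10 pairs of the 5 members tested, Ncf1 and Ncf4 had the closest profiles (distance 0.43 on the log2 scale), and Cyba and Ncf4 the most distant (1.47). Of the 3663 exon bases of Ncf1, 408 are shared with Gtf2ird2 on the opposite strand, and no source used here says whether counting used the strand, so reads of that stretch cannot be assigned with certainty.

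**Figure D2:**
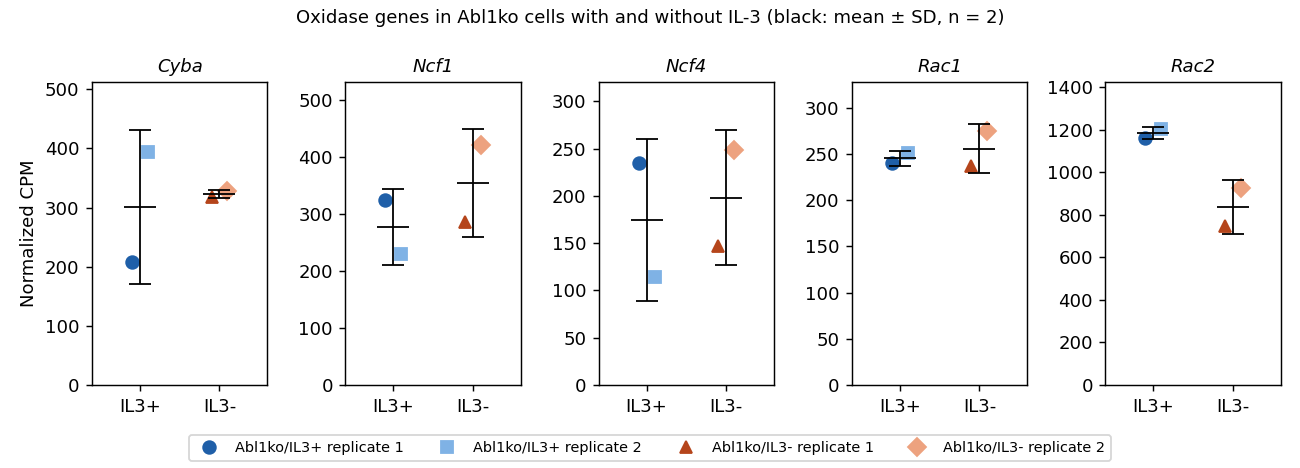
Normalized CPM of the 5 oxidase genes that passed the expression filter, with 1 symbol per library and the mean ± SD of each group in black (n = 2), every axis starting at 0. The groups overlap for Cyba, Ncf1, Ncf4 and Rac1, and Rac2 lies between 745 and 924 without IL-3 and between 1163 and 1203 with it.

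Rac2 was the one tested member whose groups did not overlap, and it was lower without IL-3. Rac2 (ENSMUSG00000033220, chromosome 15 from 78559167 to 78572783 on the minus strand) is the Rac GTPase restricted to blood cells, and in mouse neutrophils it is known to be needed for much of the oxidase's activity. It had 1163 and 1203 normalized CPM with IL-3 and 745 and 924 without it. The replicates differed by 0.049 with IL-3 and by 0.31 without it on the log2 scale. The log2 fold change was -0.50 (standard error 0.34, 95% interval -1.37 to 0.36). It did not pass edgeR's quasi-likelihood test, with an adjusted p of 0.898. The 8 myeloid progenitor markers summed to 919 and 883 FPKM with IL-3 and to 623 and 505 FPKM without it. Of the 7 that were tested, Mpo alone had groups that did not overlap, with 528 and 346 FPKM with IL-3 and 227 and 135 FPKM without it. The part of these markers in the level of Rac2 was not tested. Of all genes tested, 17.9% were lower without IL-3 with no overlap and 19.4% were higher in that way. A gene apart in this sense was thus common, and Rac2 is 1 of 5 members.

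Rac1 (ENSMUSG00000001847, chromosome 5 from 143503634 to 143528036 on the minus strand), the Rac found in nearly all cells, had 240 and 251 normalized CPM with IL-3, and 237 and 274 without it. The groups overlapped, and the log2 fold change was 0.059 (standard error 0.31, 95% interval -0.73 to 0.85, adjusted p = 0.994 from edgeR). Without Abl1ko/IL3- replicate 2 it was -0.045. Of the 4496 exon bases of Rac1, 2309 are shared with Daglb on the opposite strand, so its counts are uncertain. Daglb itself had between 1334 and 2979 counts, against 11338 to 15929 for Rac1.

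Because both Rac genes are read from the same library, their share does not depend on how libraries are scaled. The share does depend on the counts of Rac1, which are uncertain because of the exon bases shared with Daglb. Rac2 held 82.9% of the counts of Rac1 and Rac2 together in Abl1ko/IL3+ replicate 1 (95% exact binomial interval 82.7% to 83.1%) and 82.7% in replicate 2 (82.5% to 83.0%). It held 75.9% in Abl1ko/IL3- replicate 1 (75.5% to 76.3%) and 77.1% in replicate 2 (76.8% to 77.4%). These intervals cover counting error only and take each count as 1 independent read. Those of the 2 libraries without IL-3 did not overlap each other. Both libraries without IL-3 lay below both with it, at 76.5% ± 0.866 (SD, n = 2) against 82.8% ± 0.115 (SD, n = 2). The difference of -6.34 percentage points exceeded the spread between replicates, but 2 libraries against 2 cannot give a two-sided exact permutation p below 0.333, which is the value obtained. Per length, Rac2 was 7.03 and 6.95 times Rac1 with IL-3, and 4.56 and 4.88 times without it.

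**Figure D3:**
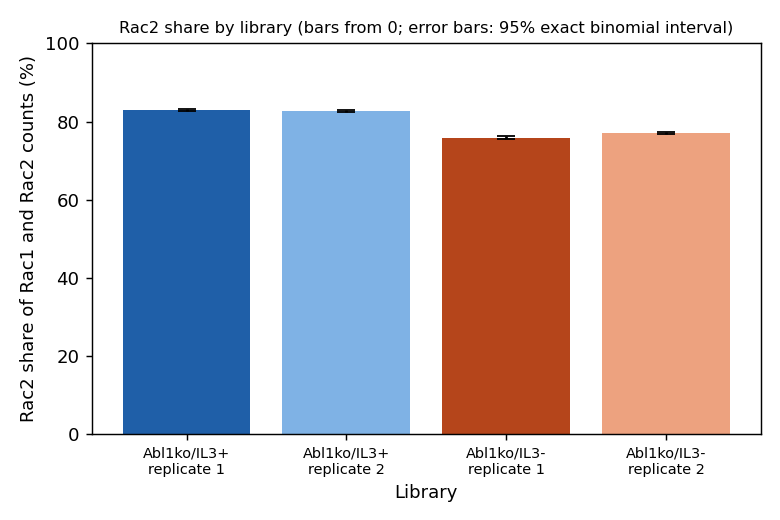
Share of Rac2 in the counts of Rac1 and Rac2 together, in percent, with 1 bar per library and the 95% exact binomial interval. The interval covers counting error only, not the spread between libraries or the exon bases that Rac1 shares with Daglb. The Abl1ko/IL3+ libraries stand at 82.9% and 82.7%, above the Abl1ko/IL3- libraries at 75.9% and 77.1%.

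Taken over the members, 5 of 6 passed the expression filter, and 0 of these 5 had an adjusted p under 0.05 in edgeR's quasi-likelihood test. None reached an unadjusted p under 0.05 in edgeR, and none was called by DESeq2 or by limma on log2 FPKM. The background was the same in edgeR, which called 0% of 16535 genes (978 at an unadjusted p under 0.05), while DESeq2 called 1.64% of them. Of the 5 members, 4 had a log2 fold change above 0 and 1 below it, and their values spanned -0.50 to 0.35 around a median over all genes of -0.027. The 95% intervals were wide, from -0.97 to 1.17 for Cyba, from -0.63 to 1.34 for Ncf1 and from -1.11 to 1.47 for Ncf4. Changes of up to 2-fold in either direction lay within the interval of Ncf4.

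**Figure D4:**
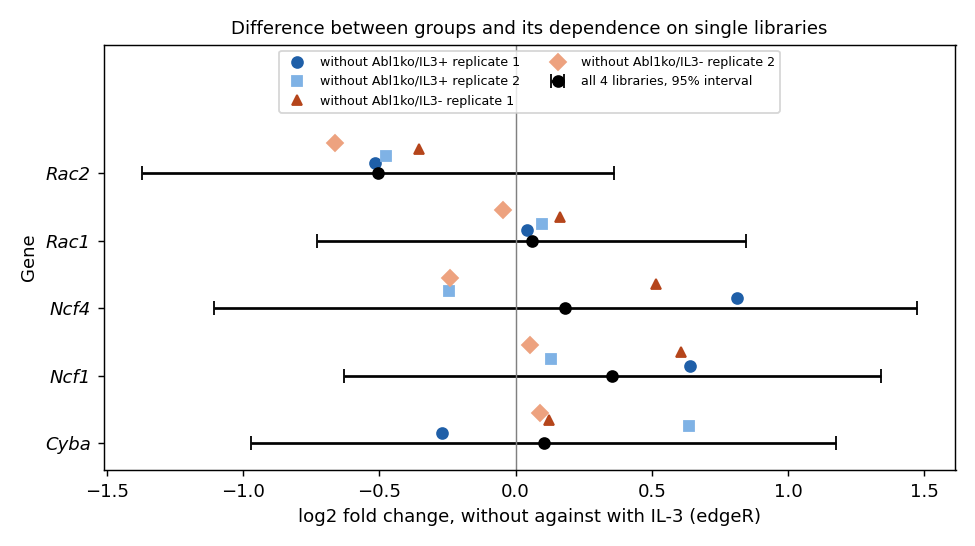
Change of the 5 tested members on the log2 scale, from edgeR, where values above 0 are higher without IL-3. Black points and bars give the value from 4 libraries with its 95% interval, each of which spans 0, and coloured symbols give the value without 1 library. Rac2 stays below 0 and Ncf1 above 0 whichever library is left out, while Cyba, Ncf4 and Rac1 lie on both sides.

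Genes with the most similar profile over the 4 libraries were found by the distance between log2 CPM values centred on each gene's mean. For Rac2 they were Rbms2 (distance 0.043), Atp6v1e1 (0.047) and Pttg1ip (0.057). Atp6v1e1, a subunit of the proton pump of acidic vesicles, had 8432 and 7689 counts with IL-3 against 4049 and 6171 without it. For Cyba they were Mus81 (0.031), Trim27 (0.041) and Rpl9 (0.070), and for Rac1 2510002D24Rik (0.029), Gm43360 (0.030) and Nudt18 (0.033). For Ncf1 they were AC154187 (0.066), Eaf2 (0.088) and Icosl (0.10), and for Ncf4 Mgat3 (0.058), Ptpn22 (0.072) and C1rl (0.080). Ptpn22, a phosphatase of blood cells, had 2515 and 1014 counts with IL-3 against 1107 and 2271 without it, so it was high and low in the same libraries as Ncf4. Gm43360, Mgat3 and Eaf2 had at most 54 counts in any library, so their likeness rests on few reads.

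The genes that assemble and activate the oxidase were looked at next, as a list of 23 of which 22 were measured and tested. None was called by edgeR or limma, 3 had an unadjusted p under 0.05 in edgeR and 2 were called by DESeq2, while 12 had higher and 10 lower values without IL-3, with a median log2 fold change of 0.0046. The groups did not overlap for 5 genes that were higher and 5 that were lower, shares near those over all genes. The 2 DESeq2 calls were S100a8 and S100a9, the calcium-binding pair known to help activate the oxidase in neutrophils. S100a9 had 7.14 and 1.64 normalized CPM with IL-3, and 141 and 370 without it, a log2 difference of 5.86 (adjusted p = 0.678 from edgeR and 1.99e-09 from DESeq2). S100a8 had 74 and 21 counts with IL-3 against 3410 and 7167 without it (adjusted p = 0.532 from edgeR and 8.69e-21 from DESeq2). Both genes are also known to rise as neutrophils mature, and the summed markers of maturing neutrophils are given further on. Pak1, a kinase that binds active Rac, had 2.28 and 5.15 normalized CPM with IL-3, and 6.16 and 13.6 without it (a log2 difference of 1.42 with edgeR's adjusted p at 0.860).

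Some further genes of that list are named after their values were seen. Rac3, the third Rac GTPase, had 2.63 and 2.39 FPKM with IL-3, and 7.23 and 5.59 without it. The groups did not overlap and lay in the direction opposite to Rac2, and the log2 fold change was 1.34 (adjusted p = 0.818 from edgeR). Even so, Rac3 stayed far below Rac1 per length in every library. Cybc1, the chaperone that stabilizes gp91-phox and p22-phox as they mature, had 18.9 and 12.3 FPKM with IL-3, and 25.9 and 22.6 without it (a log2 difference of 0.65 with edgeR's adjusted p at 0.868). Transcripts of the chaperone were thus plentiful where those of its client Cybb were nearly missing. Vav1, which loads Rac with GTP in blood cells, had between 35.5 and 41.3 FPKM in the 4 libraries, and its log2 fold change was 0.0012, with overlapping groups.

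Of 10 transcription factors known for their part in myeloid oxidase promoters, 8 were measured and tested, and 0 were called by edgeR, DESeq2 or limma (0 at an unadjusted p under 0.05 in edgeR). The median log2 fold change was -0.46, with 1 higher and 7 lower. Spi1, which codes for PU.1, had 42.2 and 39.1 FPKM with IL-3, and 24.9 and 38.8 without it (a log2 difference of -0.38 with edgeR's adjusted p at 0.930). Irf1 had 11.9 and 8.57 FPKM with IL-3, and 5.48 and 9.27 without it (a log2 difference of -0.49 with edgeR's adjusted p at 0.913). Named after its values were seen, Irf8, which works with PU.1 at the Cybb promoter in macrophages, had between 15 and 27 counts in every library, or 0.032 to 0.054 FPKM. Irf8 was therefore close to Cybb in level. Cebpe, a factor of granulocyte maturation named on the same footing, was abundant, at 311 and 146 FPKM with IL-3, and 125 and 230 without it.

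The other oxidase family genes were scarce or did not separate the groups. Of 10 in the list 4 were measured and 3 tested, and 0 were called by edgeR, DESeq2 or limma (0 at an unadjusted p under 0.05 in edgeR), with a median log2 fold change of 0.18. Nox1, a catalytic homolog of Cybb, had 12 and 9 counts with IL-3 against 26 and 0 without it. Noxa1, an activator of Nox1, was counted in Abl1ko/IL3- replicate 1 alone, with 22 counts. Both genes thus had few counts, as Cybb did.

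Enzymes that remove superoxide and peroxide were a list of 18, with 17 tested and 0 called by edgeR, DESeq2 or limma (0 at an unadjusted p under 0.05 in edgeR). Their median log2 fold change was 0.028, with 10 higher and 7 lower. Hmox1, the inducible heme oxygenase, had 104 and 53.9 normalized CPM with IL-3, and 115 and 301 without it (a log2 difference of 1.39 with edgeR's adjusted p at 0.854). Prdx3, the mitochondrial peroxiredoxin, had 81.8 and 151 normalized CPM with IL-3, and 68.1 and 64.5 without it (a log2 difference of -0.81 with edgeR's adjusted p at 0.860). In both genes the groups did not overlap in normalized CPM, although for Hmox1 the first library without IL-3 lay close to the first with it. They were the only such genes of the 17, with 1 higher and 1 lower. Over all genes tested, 19.4% were higher and 17.9% lower without overlap, so the list held no excess of such genes.

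Markers of cell types moved with some of these libraries. The 9 markers of maturing neutrophils summed to 626 and 190 FPKM with IL-3, and 479 and 3368 FPKM without it, and of the 8 tested 3 had an unadjusted p under 0.05 in edgeR and 3 were called by DESeq2, against 0 by edgeR after adjustment and 0 by limma. That sum was led by Ngp, a granule protein, and overlapped between the groups. Of the 8 tested, 6 had higher and 2 lower values without IL-3. The granule protein gene Ltf, 1 of the 3 genes called by DESeq2, had 1.75 and 0.832 FPKM with IL-3, and 11.3 and 90.6 FPKM without it. The 2 lower ones were Mmp9 and Cxcr2, the latter at 43.7 and 16.4 FPKM with IL-3, and 4.89 and 27.0 FPKM without it. The 8 monocyte and macrophage markers summed to 125 and 23.1 FPKM with IL-3, and 38.1 and 82.1 FPKM without it, so the libraries high for Ncf1 and Ncf4 were high here too. Among them C1qa was at 0 counts in Abl1ko/IL3+ replicate 2, and Ly6c2 was at 0 in 3 libraries. The 7 mast cell and basophil markers summed to 459 and 63.4 FPKM with IL-3, and 123 and 118 FPKM without it. The 6 erythroid markers summed to 265 and 6961 FPKM with IL-3, and 3632 and 1915 FPKM without it. The 4 T-lineage markers measured reached at most 2.18 FPKM in sum and the 5 fibroblast markers at most 0.430 FPKM. The part of these cell types in the levels of Ncf1, Ncf4 and Rac2 was not tested.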

How the data were processed

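RNA was depleted of ribosomal RNA and sequenced in 4 libraries, 2 per group. The authors deposited counts per gene, the same in both tables, and FPKM values. The study's methods describe alignment to GRCm38 and counting with Rsubread, while the submitters' processing notes name STAR and Cuffdiff with no role, so which of them made the counts or the FPKM values is not settled by the sources used here. Versions, strand and pair handling are likewise not given. Of the low counts from 1 to 20 in each library, between 57.7% and 59.9% were even.

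Groups came from the labels. Nothing says that libraries of a group came from separate clones, so p-values measure the spread between these libraries. No pair of libraries agreed within sampling noise (chi-square over genes). Genes were kept by filterByExpr, libraries were scaled by TMM, and edgeR 4.0.16 (R 4.3.3) ran its quasi-likelihood test on the counts, two-sided, with Benjamini-Hochberg adjustment over 16535 genes and a threshold of 0.05. Normalized CPM used the TMM library sizes. The script was tested on simulated data. Alternatives were DESeq2 1.42.0, limma 3.58.1 on log2(FPKM + 1) and log2(FPKM + 0.1), scaling by library size only, no expression filter, at least 10 counts in each library, the replicate number as a block, a threshold of 0.1 and leaving out each library. The crossed block was added after seeing the data.

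Members and lists were chosen with earlier results of these data known. Genes named were the members, Abl1, up to 3 genes per pathway list with the largest log2 fold change among those whose groups did not overlap, the 3 most similar genes per tested member, and genes overlapping a member. Any other gene was named after its values were seen, and some genes of the lists are not reported singly. Cyba and Rac1 also lie across Gm20388 and Gm42502, with which they share 0 exon bases. Lists covered other oxidase family genes, assembly and activation, transcription factors, peroxide-removing enzymes and 8 sets of cell type markers. Gene coordinates are those of the files, and promoters come from RefSeq (GRCm38.p6), where Ncf4, Rac1 and Rac2 had no entry used here.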

Additional observations from a re-analysis of the deposited data

How the results depend on the processing

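The number of oxidase members past the adjusted threshold was 0 in every fit, and the number of genes was 0 in both limma fits and in edgeR under a threshold of 0.1, under scaling by library size, with no expression filter and with at least 10 counts in each library. DESeq2 called 271 genes, 111 higher and 160 lower without IL-3, and the cause was not tested. Leaving out 1 library gave 0 to 22 genes, with 22 without Abl1ko/IL3- replicate 1 and 1 without Abl1ko/IL3- replicate 2. A lone library was then assumed to vary like the other group. With the replicate block edgeR called 0 genes and 0 members (548 genes at an unadjusted p under 0.05). Same-numbered libraries deviated in opposite directions (correlation -0.211 over genes), so the pairing was also crossed after seeing the data, and 0 genes and 0 members were called (1136 genes unadjusted). Over the fits without 1 library the log2 fold change ranged from -0.27 to 0.64 for Cyba, -0.24 to 0.81 for Ncf4, -0.045 to 0.16 for Rac1, 0.053 to 0.64 for Ncf1 and -0.66 to -0.36 for Rac2. All other alternatives kept the direction of each of the 5 members. Counted per length instead of by reads, the share of Rac2 was 87.5% with IL-3 and 82.5% without it. For Cybb, which passed no expression filter over the 4 libraries, the fits without 1 library that gave a value ranged from 0.54 to 6.61. Its counts, at most 15, limit what depth can show.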
